A study of Mus musculus with 70 samples.

Results

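Gavage of 2,3-benzofuran was compared with gavage of its corn oil vehicle in the lungs of 6 mice, 3 treated and 3 controls, out of 70 arrays in the whole series. The members are the arrays whose titles name this chemical or corn oil and whose animal identifiers belong to set 1; what the set number stands for is not stated in the labels. All 6 animals were female B6C3F1 mice, the hybrid used in rodent cancer bioassays, 18 weeks old at collection. The treated mice received 240 mg/kg in corn oil at 5 ml/kg on 5 days a week for 13 weeks, and the controls received corn oil on the same schedule. The labels class 2,3-benzofuran as a positive lung carcinogen. RNA of the right lung lobe was measured with 1 array per animal, so the p-values below measure the spread between separate animals. Levels are log2 probe set signals as deposited, and a change is the treated mean minus the control mean of these log2 values. A gene is said to have risen or fallen where its limma p-value, adjusted by Benjamini-Hochberg over 14593 genes, lay under 0.05. The lung markers Sftpc (14.34 to 14.45), Scgb1a1 (14.23 to 14.29) and Ager (13.69 to 14.00) stood near the top of the scale in all 6 animals.

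2,3-Benzofuran is a benzene ring fused to a furan ring. Cytochrome P450 enzymes can oxidise furan rings to electrophiles, which glutathione traps with the help of glutathione S-transferases. Electrophiles also modify KEAP1, the protein that keeps the transcription factor NRF2 low. NRF2 then accumulates, pairs with small MAF proteins on antioxidant response elements and raises genes of quinone reduction, glutathione supply and conjugation. In the mouse lung much of this metabolism lies in the club cells of the airways, beside ciliated cells that move mucus.

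Animal 1-10, a treated mouse, stood apart from the rest before any comparison was made. Over the genes tested its array correlated at 0.967 to 0.976 with the other 5, which correlated at 0.987 to 0.994 among themselves. Its 3' minus 5' value, the mean signal difference between 3' and 5' control probe sets of Actb and Gapdh that grows with RNA degradation, was 0.523 log2 units. The other treated animals had 0.161 (1-6) and 0.102 (1-8), and the controls had 0.297 (1-22), 0.361 (1-24) and 0.156 (1-25). The group means were 0.262 and 0.271; with 3 animals against 3 an exact two-sided permutation test cannot give a p below 0.1, so it could not show a difference at 0.05 (p = 1.00). RNA integrity numbers in the labels were 8.9 (1-10), 9.2 and 9.4 in the treated mice and 8.7 and 8.8 in the controls 1-24 and 1-25. Animal 1-10 was the highest treated animal for 56.6% of all genes tested, against 94.6% of the risen genes (490 of 518). It was the lowest for 82.9% of the fallen genes (63 of 76). The share of all genes in which it was the lowest treated animal was not computed, so the 82.9% has no such share beside it. The calls described below are therefore also given without it. A fit with the 3' minus 5' value as a covariate called 629 genes, of which 593 were among the 594 of the main fit. The group means of that value were nearly equal, so the covariate could hardly move the changes whatever its effect. This fit therefore cannot show what the RNA quality of 1-10 contributes, and that part was not tested.

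With all 6 animals, 594 genes were called (4.07% of those tested), 518 higher (3.55%) and 76 lower (0.521%) after 2,3-benzofuran. In 1902 genes (13.0%) all treated animals lay above all controls, and in 573 (3.93%) all lay below. Without animal 1-10 the count was 47 (0.322%), of which 46 were higher (0.315%) and 1, Myadm, was lower. All 594 genes kept their sign without that animal, and the median gene kept 67.5% of its rise or 66.9% of its fall. These fits take their estimate of the spread from all 70 arrays. A fit of the 6 arrays alone called 9 genes (0.0617%), all higher: Ces1g, Nqo1, Acsm1, Gpx2, Aldh3a1, Fetub, Acox2, Deup1 and Rptoros.

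**Figure D1:**
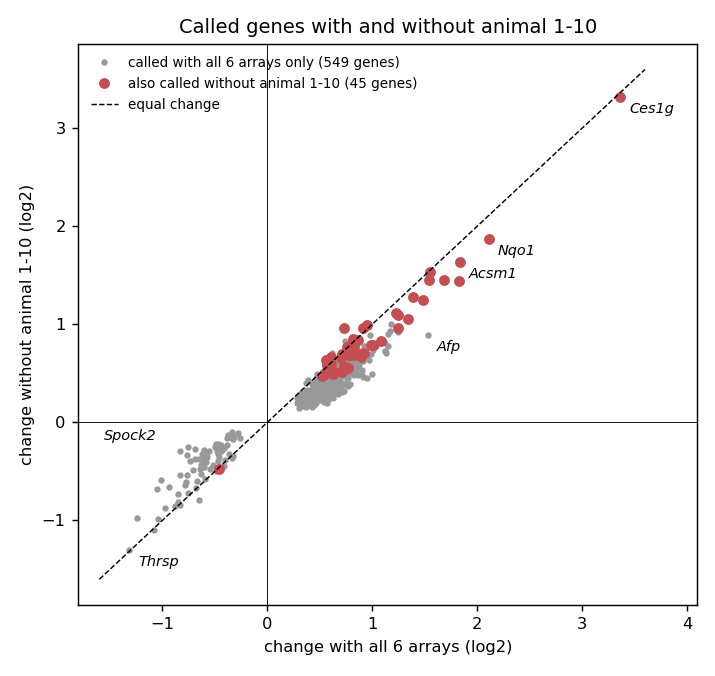
Change of each called gene with all 6 arrays (x axis, log2) against its change when animal 1-10 is left out (y axis, log2), for 594 genes. Red points mark the 45 genes also called without that animal; most other points lie closer to 0 than the dashed line of equal change, and Ces1g and Nqo1 stand at the upper end of both axes.

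Part of the NRF2 response rose. Of 24 tested members of a list of core targets, 11 rose, 0 fell and 13 were not called, where 3.55% of all genes rose. The median change was 0.51, beside 0.06 over all genes tested. Without animal 1-10, 4 members rose (Nqo1, Gpx2, Cbr1 and Aox1), and the median was 0.32 beside 0.03. In bulk tissue a change in the number of cells of a type and a change in RNA per cell cannot be told apart.

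Nqo1, the quinone reductase that serves as the usual reporter of this pathway, read 8.14, 7.68 and 7.19 in the treated animals 1-10, 1-6 and 1-8. It read 5.32, 5.61 and 5.75 in the controls 1-22, 1-24 and 1-25. The lowest treated animal thus lay well above the highest control, and the order of the animals below is always the same. Nqo1 rose by 2.11 ± 0.30 (SE; adjusted p = 7.58e-06), a 4.32-fold change, and by 1.88 without 1-10 (adjusted p = 0.00160). Gpx2, a glutathione peroxidase of epithelia, read 10.75, 10.11 and 9.99 against 8.36, 8.61 and 8.83. The groups again did not overlap, and Gpx2 rose by 1.68 ± 0.25 (adjusted p = 9.07e-06; 1.45 without 1-10).

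Reductases and other oxidoreductases of the list rose with smaller changes. Cbr1, a carbonyl reductase, read 9.93, 9.65 and 9.65 against 8.92, 8.97 and 8.90, with tight groups on both sides and a rise of 0.81 ± 0.11 (adjusted p = 4.40e-06; 0.72 without 1-10). Aox1, aldehyde oxidase, read 9.86, 9.89 and 9.87 against 8.85, 9.27 and 9.05. Its treated animals were almost identical, and its rise was 0.82 with all animals and 0.82 without 1-10. Cbr3, a related carbonyl reductase, rose by 1.03 ± 0.20 (adjusted p = 0.000758), and Blvrb, a flavin and biliverdin reductase, by 0.83 ± 0.16 (adjusted p = 0.000642). Animal 1-10 was the highest in both, at 10.33 and 9.44, and neither passed without it (adjusted p = 0.0976 and 0.0758).

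Members that supply and recycle thiols had smaller changes than Nqo1 and Gpx2. Gclm, the regulatory subunit of the enzyme that starts glutathione synthesis, read 9.39, 9.12 and 9.28 against 8.57, 8.90 and 8.71. It rose by 0.54 ± 0.15 (adjusted p = 0.0264; 0.406 without 1-10). Gclc, the catalytic subunit of that enzyme, read 10.31, 10.73 and 10.85 against 10.26, 10.61 and 10.62, so the groups overlapped. Its change was 0.13 with a 95% interval of -0.40 to 0.66 (adjusted p = 0.882). Txnrd1, thioredoxin reductase, rose by 0.60 and Srxn1, sulfiredoxin, by 0.66, and neither passed without 1-10. Hmox1, heme oxygenase, was not called: 1-10 read 8.18 and 1-8 read 7.76, while 1-6 at 7.22 lay among controls of 7.28, 7.31 and 7.11 (change 0.49, 95% interval -0.06 to 1.03, adjusted p = 0.374).

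Glutathione S-transferases, which couple glutathione to electrophiles, had the largest share of called members among the 46 lists. Of 21 tested members 15 rose and 0 fell, where 3.55% of all genes rose. All 21 had a positive change, beside 8996 of 14593 genes tested, and the median was 0.65 beside 0.06. Without animal 1-10, 7 rose (Gsta2, Gsta3, Gstm1, Gstm2, Gstp1, Gstz1 and Mgst2), where 0.315% of all genes did. The median was then 0.52 beside 0.03. The mean level of the 21 genes was 9.65, 9.24 and 9.16 in the treated animals and 8.49, 8.70 and 8.75 in the controls.

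The lowest adjusted p-values of the list were those of Gstm1 and Gstp1. Gstm1, a mu class enzyme, read 12.35, 12.47 and 12.43 against 11.46, 11.63 and 11.72, a rise of 0.81 ± 0.09 (adjusted p = 1.47e-08). Gstp1, the pi class enzyme, read 12.36, 12.42 and 12.25 against 11.53, 11.63 and 11.75, a rise of 0.71 ± 0.09 (adjusted p = 4.00e-07). For both genes animal 1-10 lay within the other treated animals or below them, and without it the rises were 0.85 (adjusted p = 2.93e-07) and 0.70 (adjusted p = 1.58e-05). Gsta2, an alpha class enzyme, read 9.14, 8.59 and 8.27 against 7.01, 7.29 and 7.26. It rose by 1.48 ± 0.21 (adjusted p = 7.10e-06) and by 1.24 without 1-10 (adjusted p = 0.00171). Mgst2, a microsomal member, read 9.26, 8.46 and 8.36 against 7.14, 7.68 and 7.51. Here 1-10 stood above the other treated mice, and the rise of 1.25 came to 0.96 without it (adjusted p = 0.0200). Gsta3 rose by 0.86 and Gstz1 by 0.79, both also without 1-10. Paralogues within these classes are near-identical in sequence, so probe sets of Gsta, Gstm and Gstp genes may share signal and their members are uncertain one by one.

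RefSeq promoter windows of assembly GRCm38.p6, from 250 bases before to 50 after a start, were searched for TGACNNNGC and TGAGNNNGC on both strands, the core letters of the antioxidant response element. Either motif occurred in 1 or more windows of 30.8% of 27025 genes. Of the 26 risen genes on the 2 lists, 24 were matched in the table and 10 held a motif. The windows of Nqo1, Gpx2, Gsta2, Gstm1 and Cbr1 held neither, which says only that these letters are not in those windows. The stretches below show 4 risen genes in which the motif lies before the start, on the gene's strand with the motif in capitals; in Osgin1 it reads on the opposite strand.
Gstp1: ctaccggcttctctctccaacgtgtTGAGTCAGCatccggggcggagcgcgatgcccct
Srxn1: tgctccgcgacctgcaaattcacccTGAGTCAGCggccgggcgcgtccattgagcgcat
Osgin1: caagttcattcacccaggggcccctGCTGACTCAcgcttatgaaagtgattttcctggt
Gsta3: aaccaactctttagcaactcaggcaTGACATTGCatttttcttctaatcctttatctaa
They lie at chr19:4037953-4038011 (minus strand), chr2:152105454-152105512 (plus strand), chr8:119437023-119437081 (plus strand) and chr1:21240439-21240497 (plus strand). Gstp1 and Srxn1 carry the same letters in the motif, Osgin1 carries them on the opposite strand, and Gsta3 carries the other motif. These 4 were chosen after the matches were seen. Of these 4 genes Gstp1 and Gsta3 rose with and without animal 1-10, and Srxn1 (0.66) and Osgin1 (0.66) rose only with it.

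The largest change of any gene was that of Ces1g, a carboxylesterase. It read 8.45, 8.53 and 8.11 after 2,3-benzofuran against 5.09, 5.11 and 4.79 after corn oil, with no treated animal standing apart. The rise was 3.36 ± 0.37 (adjusted p = 1.34e-08), or 10.3-fold, and 3.32 without 1-10 (adjusted p = 5.80e-07). Of 14 carboxylesterases and amidases tested, Ces1f also rose (1.18, and 1.01 without 1-10, adjusted p = 0.224), and the other 12 were not called. Over all genes tested 3.55% rose. Ces1d, a close relative, read 11.60 to 12.06 over the 6 animals, and its change of 0.16 did not pass (adjusted p = 0.557).

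Enzymes of fatty acid and aldehyde handling were among the 15 largest rises. Acsm1, a medium-chain acyl-CoA synthetase, read 8.30, 7.72 and 7.72 against 5.89, 6.04 and 6.31, a rise of 1.83 ± 0.28 (adjusted p = 2.20e-05; 1.64 without 1-10). Acox2, a peroxisomal oxidase of branched fatty acids and bile acid intermediates, read 8.49, 8.21 and 8.12 against 6.74, 6.94 and 6.98, a rise of 1.39 ± 0.17 (adjusted p = 7.93e-08; 1.28 without 1-10). Aldh3a1, an aldehyde dehydrogenase, read 9.53, 9.54 and 9.37 against 7.70, 8.19 and 7.90, a rise of 1.56 ± 0.25 (adjusted p = 4.52e-05; 1.53 without 1-10). The 15 largest rises were taken only from called genes with groups apart, so the separation in each, these 3 genes included, follows from the choice. All 3 were also called without animal 1-10. Of 23 genes of fatty acid oxidation 1 rose (Acaa2, 0.44), a share near the 3.55% of all genes that rose, and 0 did without 1-10 (Acaa2 0.38, adjusted p = 0.245). Of 22 aldehyde and alcohol dehydrogenases 3 rose (Aldh3a1, Aldh3b1 and Aldh7a1), and 2 did without 1-10, where Aldh7a1 had an adjusted p of 0.648. Sptssb, a subunit of the enzyme that starts sphingolipid synthesis, rose by 1.82 ± 0.32 (adjusted p = 0.000255; 1.44 without 1-10), and Fetub, a secreted protease inhibitor, by 1.54 ± 0.29 (adjusted p = 0.000618; 1.45 without 1-10).

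Aldh3a1 is also a target of the aryl hydrocarbon receptor (AhR), and it was the only called member of 7 on that list. Over all genes tested 4.07% were called and 3.55% rose, and the list counts of this paragraph stand beside these shares. The single calls on the AhR list and on the P450 list below do not set those lists apart. Cyp1a1, the standard AhR target, read 6.60, 6.81 and 6.40 against 5.92, 7.11 and 5.60, so its groups overlapped. The change was 0.40 with a 95% interval of -0.45 to 1.24 (adjusted p = 0.729). Cyp2f2, a club cell P450 known for the oxidation of naphthalene, read 13.81, 13.82 and 13.91 against 13.83, 13.92 and 13.90 (change -0.04, interval -0.18 to 0.11), near the highest value on the arrays (14.53). Cyp2e1, another P450, varied from 7.65 to 9.10 over the 6 animals with no separation (change 0.21, interval -0.93 to 1.35). Of 19 genes of the P450 list 1 rose, Cyb5a, the cytochrome that feeds electrons to these enzymes (0.38 ± 0.08, adjusted p = 0.00215; 0.121 without 1-10). Ephx1, the epoxide hydrolase of xenobiotic metabolism, rose by 0.46 ± 0.10 (adjusted p = 0.00363), which did not pass without 1-10 (0.40, adjusted p = 0.124). Of 10 genes that supply NADPH, the reductant of these reactions, 4 rose (Pgd, Pgls, Taldo1 and Rpia) by 0.35 to 0.49, and 0 did without that animal.

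**Figure D2:**
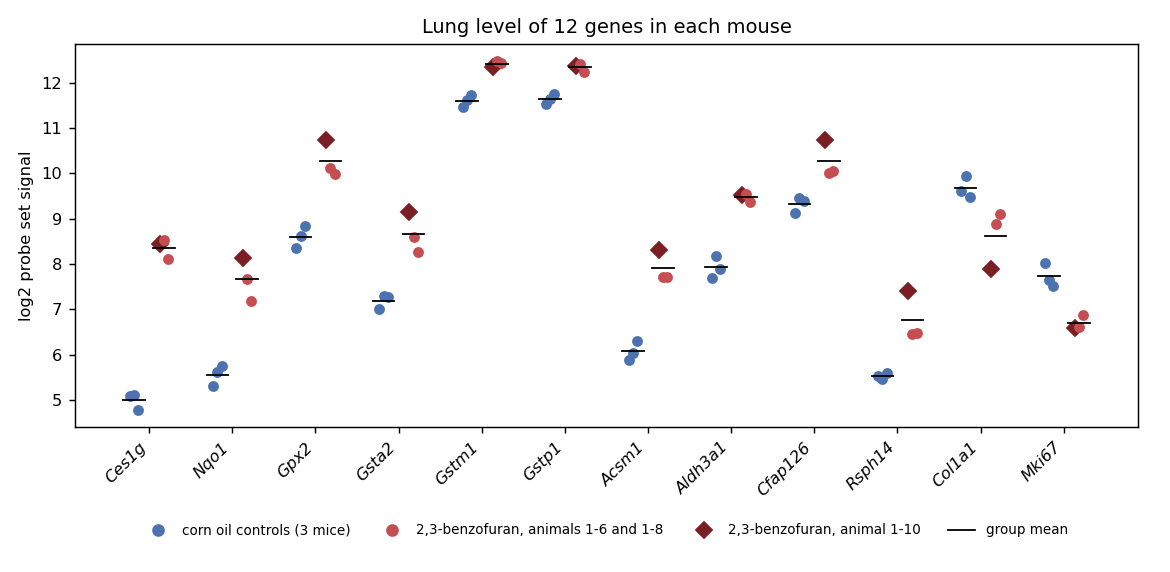
Log2 probe set signal of 12 genes in each mouse, with corn oil controls in blue, treated animals 1-6 and 1-8 in red, treated animal 1-10 as dark diamonds and group means as lines. Ces1g, Gstm1, Gstp1 and Aldh3a1 rose to a similar level in all 3 treated mice, while 1-10 lies above the other treated mice in Cfap126 and Rsph14 and below them in Col1a1.

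Genes of motile cilia were higher in all treated animals and highest in animal 1-10. Of 39 ciliated cell markers tested, 14 rose and 0 fell, where 3.55% of all genes rose. All 39 had a positive change, beside 8996 of 14593 genes tested, and the median was 0.56 beside 0.06. Without 1-10 the median was 0.38 beside 0.03, and 1 member rose, where 0.315% of all genes did. The mean level of the list was 8.36 in 1-10 and 7.88 and 7.94 in the other treated animals, against 7.34, 7.71 and 7.54 in the controls. The treated group thus lay above the controls, and 1-6 and 1-8 lay nearer to the highest control than to 1-10.

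Cfap126, a protein of the ciliary axoneme, read 10.74, 10.01 and 10.06 against 9.13, 9.47 and 9.39, a rise of 0.94 ± 0.17 (adjusted p = 0.000376; 0.70 without 1-10, adjusted p = 0.0655). The member that also passed without 1-10 was 1110017D15Rik, which read 10.68, 10.02 and 9.98 against 9.14, 9.53 and 9.32 (0.90 ± 0.15, adjusted p = 0.000158; 0.67 without 1-10, adjusted p = 0.0349). Tekt4 and Tekt2, tektins of the axoneme, rose by 0.85 and 0.55, and Lrrc23 and Pifo by 0.81 each. Outside the list, Rsph14, a radial spoke protein, rose by 1.25 (0.94 without 1-10, adjusted p = 0.188) and Wdpcp, a regulator of cilium assembly, by 1.35 (1.06 without 1-10, adjusted p = 0.00792). Foxj1, the transcription factor that drives motile ciliogenesis, read 8.83, 8.47 and 8.87 against 7.84, 7.93 and 8.11. Its groups did not overlap, but the change of 0.76 did not pass (adjusted p = 0.0846). The club cell markers, another airway class, had 0 of 14 called, where 4.07% of all genes were, and a median of 0.19. Mucous and serous secretory cell markers had 0 of 14 called (median -0.07) and basal epithelial cell markers 0 of 6 (median -0.09).

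**Figure D3:**
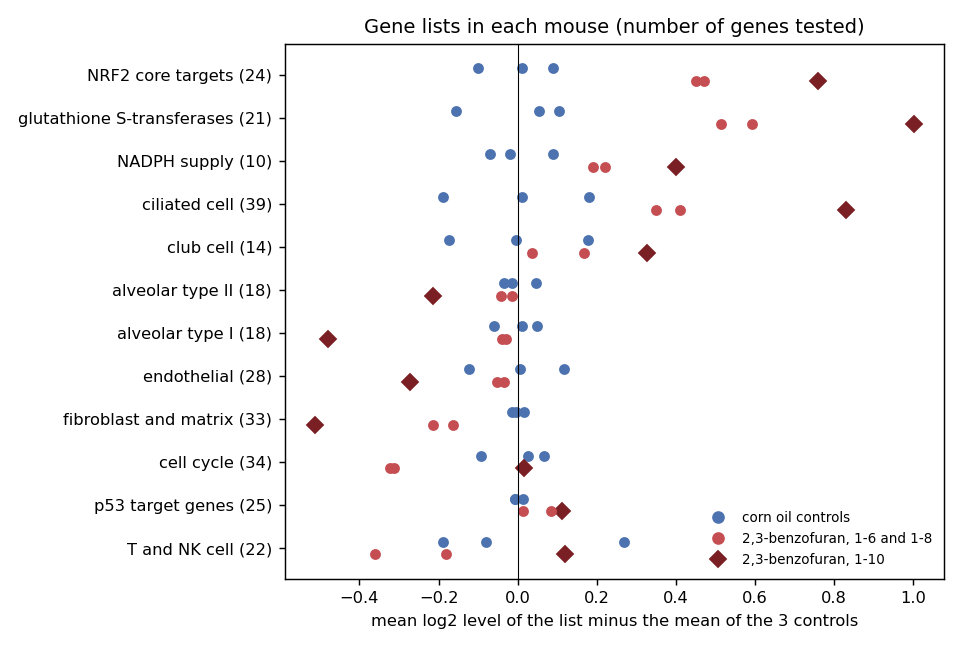
Mean log2 level of 12 gene lists in each mouse, shown as the difference from the mean of the 3 controls, with the number of genes tested in brackets, controls in blue, treated animals 1-6 and 1-8 in red and 1-10 as dark diamonds. Treated animals lie right of all controls in the NRF2, glutathione S-transferase, NADPH and ciliated cell lists, and 1-10 alone lies far left in the alveolar type I list.

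Of the 76 fallen genes 1, Myadm, also passed without animal 1-10. Among the lists, matrix genes had the most falls: of 33 fibroblast and matrix genes 9 fell and 0 rose, with a median of -0.32, against 0.521% of all genes that fell. Without 1-10 none of the 33 passed with limma, and the median was -0.17 (beside 0.03 over all genes). The mean of the list was 9.43 in 1-10, 9.73 and 9.78 in the other treated animals and 9.93, 9.96 and 9.94 in the controls. The controls were tight, all treated animals lay below them, and 1-10 was the lowest.

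Col1a1, the main chain of type I collagen, read 7.88, 8.88 and 9.12 against 9.61, 9.95 and 9.47, a fall of 1.05 ± 0.27 on the log2 scale (adjusted p = 0.0160). Its change without 1-10 was -0.68 (adjusted p = 0.573). Col3a1, a fibrillar collagen of the same matrix, read 11.32, 11.50 and 11.56 against 12.31, 12.07 and 12.01. Its treated animals were close together, and the change of -0.67 came to -0.60 without 1-10 (adjusted p = 0.424). The calls of Col1a1 and Col3a1 were each also lost without control 1-22 and without control 1-24. Sparc, a collagen-binding matrix protein, had a change of -0.39 (adjusted p = 0.00418) and Fn1, fibronectin, one of -0.63 (adjusted p = 0.0207). Eln, elastin, overlapped between the groups, with a change of -0.07 (interval -0.67 to 0.53).

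Alveolar type I markers fell in animal 1-10 rather than in the group. The list mean was 10.76 in that animal and 11.18 to 11.29 in the other 5. Spock2, a proteoglycan of these cells, read 8.72 in 1-10 and 10.32 to 10.71 in the others, and Vegfa read 9.48 and 10.20 to 10.55. Both were called with 1-10 (changes -0.83 and -0.49), and without it the values were -0.29 (adjusted p = 0.880) and -0.22 (adjusted p = 0.831). Ager, the defining marker, was not called (-0.10, interval -0.24 to 0.03).

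Of 24 genes of cholesterol and fatty acid synthesis 1 fell (Elovl6), where 0.521% of all genes fell. On that list 17 were higher, 7 were lower and the median was 0.15. Thrsp, a regulator of lipogenesis, read 6.50, 6.12 and 7.00 against 7.30, 8.69 and 7.58, with a change of -1.32 ± 0.38 (adjusted p = 0.0318), and Elovl6, a fatty acid elongase, read 5.80, 5.41 and 6.09 against 6.50, 7.52 and 6.51 (-1.08 ± 0.28, adjusted p = 0.0184). Control 1-24 stood highest in both, and neither passed without 1-10 although the changes stayed at -1.30 and -1.10. Both calls were also lost without control 1-24, without treated animal 1-6, with set 1 alone and with the 6 arrays alone. Mki67, a marker of dividing cells, read 6.58, 6.62 and 6.87 against 8.01, 7.66 and 7.52 (-1.04 ± 0.32, adjusted p = 0.0458; -0.99 without 1-10, adjusted p = 0.422). The Mki67 call was also lost without treated animal 1-6, without control 1-22 and without control 1-24. Of 34 cell cycle genes Mki67 was the only one called, where 4.07% of all genes were. In that list 29 had a negative change and the median was -0.19, beside 5597 of 14593 genes lower and a median of 0.06. In the cell cycle list animal 1-10, with a mean of 6.75, lay among the controls (6.64 to 6.80), while 1-6 and 1-8 lay lower at 6.42 and 6.41. With the feed controls of set 1 added to the corn oil controls the list median was 0.01 and 0 genes of the list were called by limma. With the corn oil controls of both sets pooled the change of Mki67 was 1.01 and that of Elovl6 was 0.03, both turned in sign.

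Lists of DNA damage, inflammation and immune cells gave 0 or 1 call each, near the 4.07% of all genes that were called, so these counts do not set the lists apart. Of 25 p53 target genes 0 were called and the median was 0.02. Cdkn1a, the p53-induced inhibitor of cell division, read 9.51, 9.59 and 10.17 against 9.58, 9.10 and 8.94, and its change of 0.55 had an interval of -0.16 to 1.26 (adjusted p = 0.464). Of 36 DNA repair genes Polb, the base excision polymerase, was called (0.38, adjusted p = 0.0315; 0.25 without 1-10, adjusted p = 0.662), and 2 of its 4 probe sets moved the opposite way, down to -0.50. By limma no member was called of 18 inflammatory cytokines and chemokines, 22 interferon response genes or 22 T and NK cell markers. Of 19 B and plasma cell markers and 16 neutrophil markers none was called either, where 4.07% of all genes were. Each of 12 circadian genes that peak together with Dbp was lower (median -0.43, none called), yet control 1-22, at a list mean of 7.47, matched the treated animals (7.45, 7.32 and 7.47) and the other controls stood at 8.35 and 8.09. The labels give no time of day for collection, and its part was not tested.

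Some calls held in every leave-out. These refits share arrays with one another and with the main fit, so they are a selection from the same data and no independent support. A fit of the 6 arrays alone called 9 genes, and 8 genes were called in every setting. With each of the 6 arrays left out in turn, 41 genes were called every time, 40 of them higher. They include Ces1g, Nqo1, Gpx2, Acsm1, Acox2, Aldh3a1, Sptssb, Fetub and the 7 transferases that rose without 1-10. Genes of the same 41 that no list above holds, named here after their values were seen, include Pir, an iron-binding nuclear protein, and Abcb6, a porphyrin transporter. Pir read 9.65, 9.19 and 8.95 against 8.11, 8.52 and 8.21 (0.98, adjusted p = 0.000287), and Abcb6 read 8.01, 7.46 and 7.22 against 6.43, 6.86 and 6.38 (1.01, adjusted p = 1.22e-05). Mthfd1, an enzyme of folate metabolism, read 10.92, 11.22 and 10.91 against 10.08, 10.07 and 10.15 (0.91, adjusted p = 0.00235). Deup1, which amplifies centrioles in multiciliated cells, read 6.30, 5.85 and 6.05 against 4.80, 4.84 and 4.88 (1.23, adjusted p = 0.000158; 1.11 without 1-10). All of these had groups that did not overlap, but they were picked from genes called in every leave-out. The separation is therefore no added support, and in 13.0% of all genes tested all treated animals lay above all controls. The fallen gene among the 41, Myadm, a membrane protein, read 10.69, 10.63 and 10.67 against 11.06, 11.28 and 11.04 (-0.46, adjusted p = 0.000651; -0.47 without 1-10). Zbtb12 and Tnpo3 were called without 1-10 and not with it, where 1-10 lay below all controls in Zbtb12 and among them in Tnpo3.

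The response was set beside those to 1,5-naphthalenediamine and coumarin, also classed as positive lung carcinogens, which have control animals of their own. 1,5-Naphthalenediamine was given in feed at 2000 ppm on 7 days a week in set 1 (3 against 3 feed controls). Coumarin was given at 200 mg/kg in corn oil on 5 days a week in set 2 (4 against 8). Coumarin shares the route, vehicle and schedule of 2,3-benzofuran and differs in dose and set, and 1,5-naphthalenediamine shares its set and differs in dose, route, vehicle and days per week. The chemicals cannot be told apart from these differences. 1,5-Naphthalenediamine raised 140 genes (0.959%) and coumarin 425 (2.91%). Of the 518 genes that rose with 2,3-benzofuran, 61 also rose with 1,5-naphthalenediamine, 11.8% of the former and 43.6% of the latter, and 150 also rose with coumarin, 29.0% and 35.3%. Of the 46 that rose without animal 1-10, 22 also rose with 1,5-naphthalenediamine (47.8% of the 46, 15.7% of the 140) and 34 with coumarin (73.9% of the 46, 8.00% of the 425). Of 14593 genes tested, 22 fell with 1,5-naphthalenediamine, 172 with coumarin and 76 (0.521%) with 2,3-benzofuran. Of these 76, 6 also fell with coumarin (7.89% of the 76, 3.49% of the 172). With 1,5-naphthalenediamine 0 of them fell, but its falls were too few for that count to tell the responses apart.

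The lead genes rose with all 3 chemicals. Ces1g changed by 3.36 with 2,3-benzofuran, 3.59 with coumarin and 4.57 with 1,5-naphthalenediamine, and Nqo1 by 2.11, 2.19 and 3.14. The difference for Nqo1 was -0.08 from coumarin (interval -0.84 to 0.69) and -1.03 from 1,5-naphthalenediamine (-1.89 to -0.16, adjusted p = 0.497), so neither passed. Acsm1 changed by 1.83, 2.42 and 1.43 and Gpx2 by 1.68, 1.50 and 2.46. Among the 13 chemicals of the series, 2,3-benzofuran gave the largest change in 5 of its own 15 largest rises (Afp, Rsph14, Asgr1, Rptoros and Mgst2), which is a description since the genes were chosen on this contrast. Afp, the fetal albumin, was highest in animal 1-10. It read 7.82 there and 6.32 and 5.51 in the other treated mice, against 5.23, 5.35 and 4.48 (0.90 without 1-10, adjusted p = 0.639). The Afp call was also lost without control 1-22, without control 1-25 and with probe sets averaged. Its 5 probe sets changed by -0.07 to 1.53.

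A test of the difference between the responses called 12 genes against 1,5-naphthalenediamine (0.0822%), and 16 without animal 1-10, of which 9 were shared. Cyp1a1 changed by 6.05 with 1,5-naphthalenediamine and 0.40 with 2,3-benzofuran, a difference of -5.65 ± 0.59 (adjusted p = 3.30e-09). Gclm changed by 1.48 and 0.54 (-0.95 ± 0.21, adjusted p = 0.0457), though that call was lost in a fit of these groups alone (adjusted p = 0.0871). Asgr1, a lectin-type receptor, fell with 1,5-naphthalenediamine (-1.39) and rose with 2,3-benzofuran (1.25), where it read 7.61, 6.74 and 6.50 against 5.67, 5.79 and 5.64. That difference was 2.64 ± 0.44 (adjusted p = 0.000349), and the rise did not pass without 1-10 (0.92, adjusted p = 0.424). Sncg, gamma-synuclein, Gp2, a membrane glycoprotein, and Wfdc3, a protease inhibitor, rose with 1,5-naphthalenediamine by 2.57, 4.30 and 2.23 and were not called with 2,3-benzofuran (0.26, 0.83 and 0.51). Gp2 passed the filter of 4.25 narrowly, with a mean of 4.30 over all arrays that includes the groups where it rose. It read 4.96, 4.72 and 4.51 after 2,3-benzofuran against 3.42, 4.31 and 3.96, so its change of 0.83 was read near the floor. The larger part of its difference is the 4.30 with 1,5-naphthalenediamine.

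Against coumarin the test called 3 genes (0.0206%). Gstp1 changed by 0.71 with 2,3-benzofuran and 0.14 with coumarin, a difference of 0.57 ± 0.11 (adjusted p = 0.0351; 0.0847 without animal 1-10). Pnliprp1, a pancreatic lipase relative, changed by 0.75 and 2.37 (-1.62 ± 0.28, adjusted p = 0.00548). Lrrc26, a subunit of potassium channels in secretory epithelium, changed by 0.28 and 1.37 (-1.08 ± 0.22, adjusted p = 0.0486), and its level in animal 1-10 was 8.46 against 7.49 to 7.80 in the other 5. Without 1-10 the differences of Pnliprp1 and Lrrc26 were -1.83 and -1.36, and both passed. None of the 3 passed in a fit of the arrays of these 4 groups alone by limma (adjusted p 0.387 to 0.626).

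**Figure D4:**
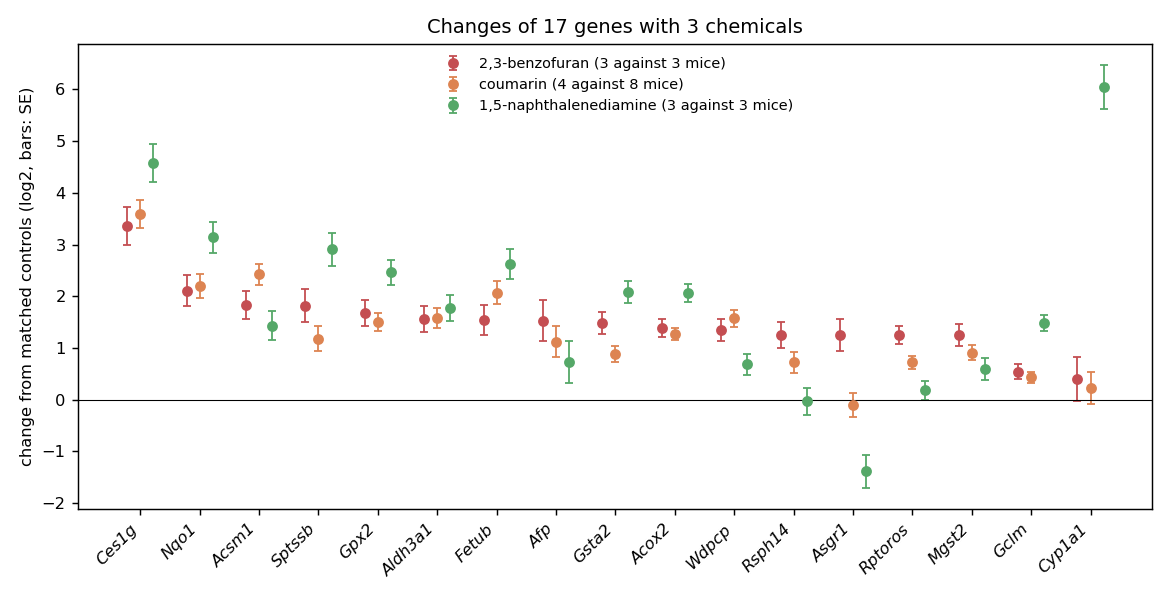
Change from matched controls (log2, with SE) of the 15 largest rises with 2,3-benzofuran and of Gclm and Cyp1a1, for 2,3-benzofuran (red), coumarin (orange) and 1,5-naphthalenediamine (green). Ces1g and Nqo1 lie high for all 3, Cyp1a1 is at 6.05 for 1,5-naphthalenediamine alone, and Asgr1 lies above 0 for 2,3-benzofuran and below 0 for 1,5-naphthalenediamine.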

How the data were processed

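Affymetrix mouse arrays, hybridised per the labels with biotin-marked RNA of the right lung lobe (Trizol, then RNeasy), were read from the authors' deposited log2 probe set signals (2.47 to 14.53). How they were summarized and normalized is not stated in the labels. Probe sets with 1 gene symbol (34945 of 45101) were named from the platform table and RefSeq (GRCm38.p6), and each gene took its probe set with the highest mean. Genes above the 30th percentile (4.25) were kept, 14593 of 18193. limma 3.58.1 in R 4.3.3 fitted a mean for each of 18 groups of set, chemical and vehicle over 70 arrays, and was tested on simulated data. Intervals are 95% intervals, and the number of arrays limits precision. Named genes were the 15 largest rises and falls among called genes with groups apart, up to 5 called members of each of 46 lists, 16 fixed genes and up to 8 in each direction for the differences between chemicals; others are said to be chosen later or illustrate a list. Members and lists were chosen with earlier results of these data known. Alternatives changed the filter, probe set rule, normalization, arrays fitted, variance model and controls. Figures were drawn with matplotlib 3.10.9.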

Additional observations from a re-analysis of the deposited data

Results flagged for a closer look

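The change with 2,3-benzofuran minus the change with 1,5-naphthalenediamine passed limma's adjusted threshold in 12 genes, with dose, route and vehicle differing between the chemicals. The difference was positive for Asgr1 (2.64), Lrrc26 (1.70), Slc4a5 (1.44), Tekt2 (1.05), Efhc2 (0.82) and Naxd (0.63). Of these Lrrc26 and Slc4a5, a bicarbonate cotransporter, were lower with 1,5-naphthalenediamine (-1.42 and -1.38) and not called with 2,3-benzofuran. Tekt2, Efhc2 and Naxd rose with 2,3-benzofuran and were not called with 1,5-naphthalenediamine, and their differences did not pass without animal 1-10 (0.92, 0.79 and 0.58; adjusted p = 0.0775, 0.0644 and 0.0857). The difference was negative for Cyp1a1 (-5.65), Gp2 (-3.46), Sncg (-2.31), Wfdc3 (-1.73), Gclm (-0.95) and Shh (-0.77), a secreted signal of epithelia. Over all arrays Gp2 and Efhc2 had means of 4.30 and 4.29, just above the filter of 4.25. Against coumarin the differences of Gstp1 (0.57), Lrrc26 (-1.08) and Pnliprp1 (-1.62) passed.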

How the results depend on the processing

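Counts of genes called with 2,3-benzofuran were 594 and within 1.5 times of it without a filter, with a stricter filter, with all probe sets averaged, after quantile normalization over again, with a variance trend, with the 3' minus 5' value as a covariate and with the feed controls of set 1 added. The count was 9 with the 6 arrays alone, 223 with set 1 alone, 1325 with array weights (956 higher, 369 lower) and 3866 with the corn oil controls of both sets pooled (2074 higher, 1792 lower), which mixes set with treatment. Leaving out each array gave 47 (without 1-10) to 1331 (without 1-8), with 129 without control 1-22, 299 without control 1-24 and 918 without 1-6; the cause was not tested. Ces1g, Nqo1, Acsm1, Gpx2, Aldh3a1, Fetub, Acox2 and Rptoros passed in all 18 settings. Against 1,5-naphthalenediamine the 12 calls were 20 without a filter, 30 with set 1 alone and 166 with array weights, and 8 to 17 with an array left out. Against coumarin the 3 calls were 1 with the stricter filter, 7 after quantile normalization over again, 0 with the 4 groups alone (14593 genes tested, limma), 271 with array weights and 0 to 20 with an array left out. Signs turned for Polb with probe sets averaged (-0.07), and with both sets' controls pooled for Elovl6 (0.03), Mki67 (1.01), Cdk6 (0.19), Pgls (-0.10) and Rpia (-0.15). No paired analysis was possible because the animal numbers are unique. The 3' minus 5' difference of -0.0089 kept its sign with Actb or Gapdh alone.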
